A study of Mus musculus with 15 samples.

Results

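Top1, Psip1, Dek and Hmgn5 encode nuclear proteins that bind DNA or nucleosomes and help to set how open the chromatin fibre is. They are 4 of the 55490 genes in a table of ribosome-protected fragment counts from mouse eggs, zygotes and early 2-cell embryos. The members were chosen by symbol with their measured levels known, as shares of protein-coding counts across the stages and both genotypes, so their levels and folds between groups are given as a description, with no p-value, and nothing is read from whether a fit across all genes called them. Hmgn5 had a larger share in every KO library than in any Het library at each of the 3 stages, an order that held at all 3 under 2 of 5 denominators and at the early 2-cell stage under all 5. Top1 had a smaller share in every early 2-cell library than in any PN5 library of the same genotype. Psip1 had no count in 6 libraries and Dek in 11, in some cases beside libraries of the same group that held more than 100 counts.

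Topoisomerase I, the product of Top1, cuts and reseals a single DNA strand and so relaxes the supercoils that form ahead of polymerases. Psip1 encodes LEDGF, which reads methylated histone tails through a PWWP domain and tethers partner proteins to transcribed chromatin. DEK binds DNA through a SAP-type domain, prefers crossed or supercoiled DNA and acts as a histone chaperone. HMGN5, encoded on the X chromosome, binds nucleosomes and counteracts the compaction by linker histones. A full-grown egg makes no new mRNA, so until the zygotic genome is activated the embryo makes such proteins from mRNAs that the mother stored.

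The donors were B6D2F1 females that carried HA-tagged Rpl22 (labelled Rpl22 HA), a protein of the large ribosomal subunit, and that were Eif4e1b KO or Eif4e1b Het. Eif4e1b belongs to the family of the cap-binding translation factor eIF4E and is made in eggs, and the design asks which mRNAs ribosomes hold in its absence. In all groups ribosomes were pulled down through the tag after RNase digestion, and each library pooled some 200 eggs, some 200 zygotes or some 100 embryos at the early 2-cell stage. M2 eggs, arrested at the second meiotic metaphase, gave 2 Het and 2 KO libraries, PN5 zygotes, at a late pronuclear stage, gave 3 of each, and the early 2-cell stage gave 3 Het and 2 KO, 15 libraries in all. The genotype is that of the female, and the labels do not say which cells drive the tag, how old the females were, or whether libraries came from separate animals, so the spread between libraries may be technical. Total RNA measured beside the ribosome-bound RNA was not analysed here, so more mRNA and more ribosomes per mRNA cannot be told apart, nor can fewer embryos in a pool and less RNA per embryo.

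Eif4e1b had 0 counts in all 15 libraries, which leaves the labelled genotypes without a check from the targeted gene. Libraries held 93222 to 1201146 counts, of which 1059 to 47399 fell in protein-coding genes: 5997 to 47399 in M2, 8614 to 39997 in PN5 and 1059 to 7795 in early 2-cell libraries. A share below is a gene's count as a percentage of the protein-coding counts of its library, intervals are exact 95% Clopper-Pearson intervals, and a count of 0 is read as under 3 counts. Intervals and floors cover counting error only, since PCR copies without molecular identifiers are not independent molecules. Of the 15 egg and zygote markers listed, 8 had a count (498 counts in all, 351 of them from the chaperone gene Npm2), while Zp1, Zp2, Zp3, Oosp1, Padi6, Tle6 and Oog1 were at 0. The 2-cell marker list had 9 counts in all, the blood list 1 and the sperm list 0.

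Summed over the 4 genes, the share was 3.61% to 8.22% in M2 libraries, 2.59% to 6.83% in PN5 libraries and 0% to 2.83% in early 2-cell libraries. Over all 15 libraries Top1 had 6056 counts and was present in 13 libraries. Psip1 had 3946 counts in 9 libraries, Dek 1188 in 4, and Hmgn5 845 in 14. By mean share Top1 stood 7th, Psip1 11th, Hmgn5 35th and Dek 54th among protein-coding genes, an order that is not corrected for the length of the mRNA.

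**Figure D1:**
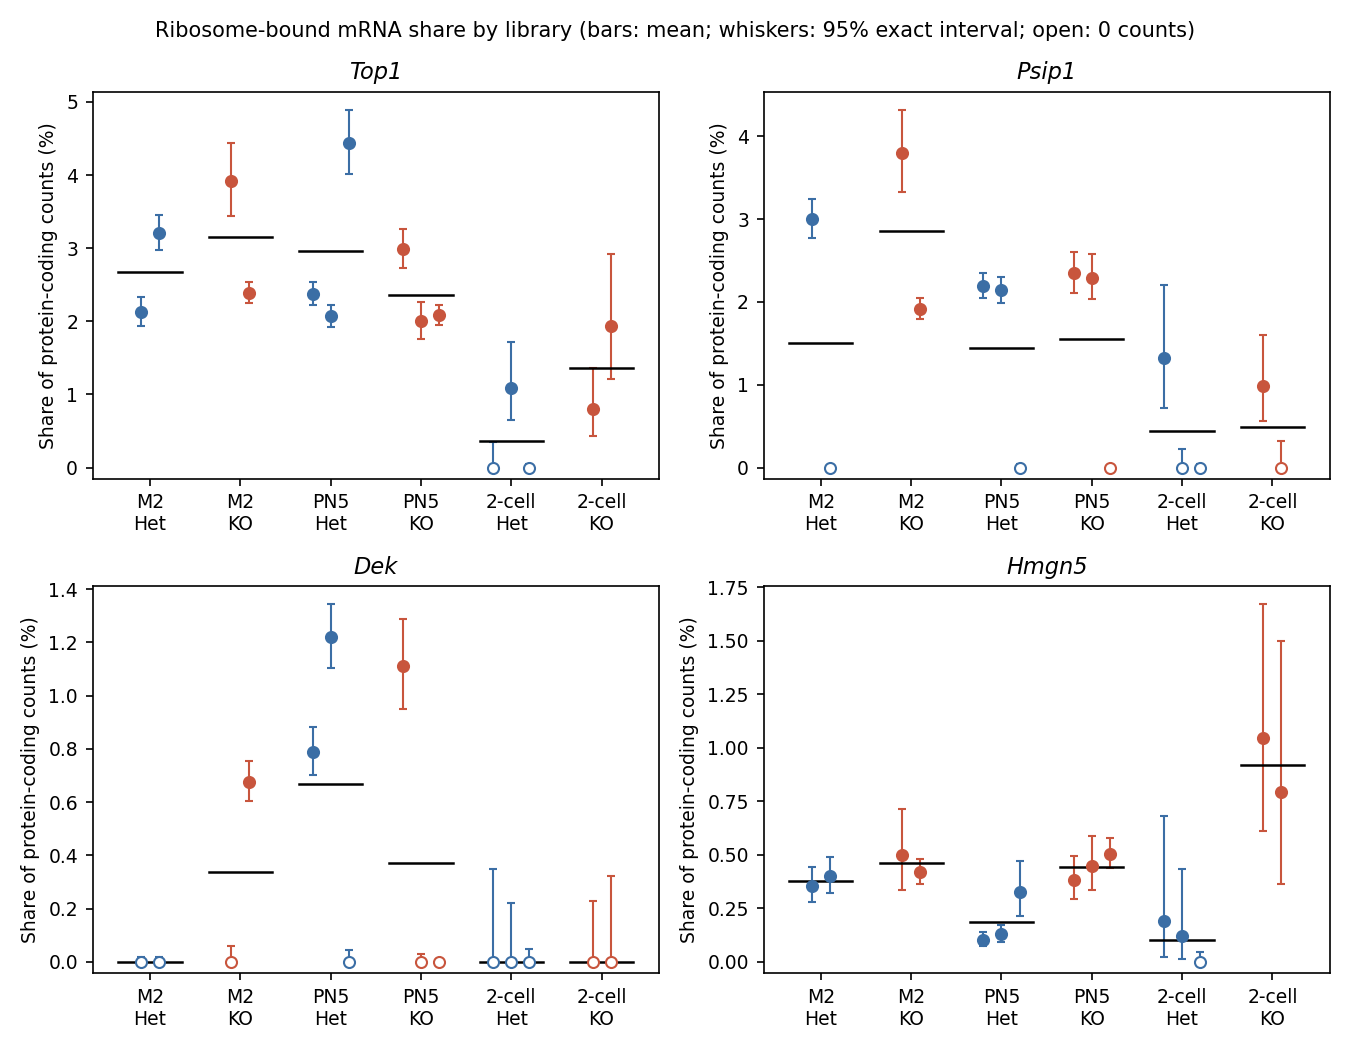
Share of protein-coding counts (%, vertical axis) of Top1, Psip1, Dek and Hmgn5 in each of the 15 libraries, by stage and genotype (Het blue, KO red). Points are libraries, open points are libraries with 0 counts, whiskers are exact 95% intervals and bars are group means. Top1 sits at or above 2.00% in every M2 and PN5 library and at or below 1.94% in every early 2-cell library, and every KO point of Hmgn5 lies above the Het points of its stage.

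Top1 (ENSMUSG00000070544, chromosome 2, 160645897 to 160722764 on GRCm38.p6) was held at a similar share by ribosomes of eggs and zygotes. Its share was 2.13% and 3.21% in M2 Het and 3.92% and 2.39% in M2 KO. In PN5 zygotes it was 2.38%, 2.07% and 4.43% in Het and 2.99%, 2.00% and 2.09% in KO. These 4 groups overlapped throughout, with means of 2.67 ± 0.76% (SD, n = 2), 3.15 ± 1.08% (SD, n = 2), 2.96 ± 1.29% (SD, n = 3) and 2.36 ± 0.548% (SD, n = 3) in that order. The KO mean was 1.18 times the Het mean in eggs and 1.26-fold lower in zygotes, both smaller than the spread within groups, and under some of the 5 scalings described below both turned.

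In early 2-cell embryos the share of Top1 was 0%, 1.09% and 0% in Het (0, 18 and 0 counts) and 0.801% and 1.94% in KO (13 and 22 counts). All 5 libraries lay below all 6 PN5 libraries, although KO replicate 2 with 1.94% came close to the lowest PN5 value of 2.00%. The Het mean of 0.363 ± 0.628% (SD, n = 3) was 8.16-fold below that of PN5 Het, and the KO mean of 1.37 ± 0.803% (SD, n = 2) was 1.72-fold below that of PN5 KO. Without the libraries numbered 3 the Het difference was 4.08-fold. The KO difference was 2.94-fold without early 2-cell KO replicate 2 and 1.22-fold without early 2-cell KO replicate 1. Libraries did not overlap in the lower direction for 9.49% of the 495 genes tested between the Het stages and for 9.7% between the KO stages. Scaled by TMM (the trimmed mean of M values) the stage difference was 16.4-fold in Het and 5.30-fold in KO, and over the 5 scalings it ran from 7.35-fold to 16.4-fold in Het and from 1.48-fold to 5.30-fold in KO, where libraries overlapped under 1 of the 5.

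The depth of the early 2-cell libraries bounds how much of this can be read from single zeros. At the PN5 Het mean share, early 2-cell Het replicate 1 would hold 31.3 counts of Top1 and replicate 3, the deepest of the stage, 231 counts, and both held 0. Replicate 2 held 18 counts where that share gives 49.0. Het replicate 3 held 0 counts of all 4 genes, and its TMM factor of 2.87 was the highest of the 15 libraries. KO replicate 1 held 13 counts where the PN5 KO mean share gives 38.3, and replicate 2 held 22 where it gives 26.8. The KO mean of early 2-cell embryos was 3.78 times the Het mean, with libraries that overlapped. It was 2.52 times without Het replicate 3, 5.34 times without KO replicate 1 and 2.21 times without KO replicate 2. The Het mean rests on the 18 counts of replicate 2: without that library Het is at 0, and with a floor of 3 counts in each remaining library the KO mean is at least 8.51-fold higher, and PN5 Het at least 18.4-fold higher, than early 2-cell Het.

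Psip1 (ENSMUSG00000028484, chromosome 4, 83455680 to 83486463) had more than 200 counts in 7 of the 10 M2 and PN5 libraries and 0 in the other 3. Its share was 3.004% (628 counts) and 0% in M2 Het and 3.80% (228 counts) and 1.92% (909 counts) in M2 KO. In PN5 zygotes the share was 2.19%, 2.14% and 0% in Het and 2.34%, 2.29% and 0% in KO. Early 2-cell embryos gave 1.32%, 0% and 0% in Het and 0.986% and 0% in KO, from 14 and 16 counts in the libraries that had any. The 4 PN5 libraries with Psip1 lay within 2.14% to 2.34%, a narrower band than that of Top1 in the same libraries (2.00% to 2.99%).

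The zeros set the group means of Psip1. PN5 Het averaged 1.44 ± 1.25% (SD, n = 3) and PN5 KO 1.55 ± 1.34% (SD, n = 3), a ratio of 1.07, whereas the summed counts gave 1.93% in Het and 0.940% in KO because the KO library without Psip1 was the deepest of its group. In eggs the KO mean of 2.86 ± 1.33% (SD, n = 2) was 1.90 times the Het mean of 1.50 ± 2.12% (SD, n = 2), and without M2 Het replicate 2 it was 0.952 times. Without M2 Het replicate 1 the Het group is at 0, and against a floor of 3 counts the KO mean is at least 212-fold higher. The 2 Het libraries thus decide this comparison, and the floor covers counting error only. At the share of the other library of its group M2 Het replicate 2 would have held 669 counts of Psip1, and at the mean share of the other 2, PN5 KO replicate 3 would have held 928 and PN5 Het replicate 3 would have held 186. The libraries of all 7 comparisons overlapped for this gene.

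Psip1 and Top1 stayed near the same count in the libraries that held both. In those 8 libraries the ratio of Psip1 to Top1 counts had a median of 1.00, a lowest value of 0.785 in PN5 KO replicate 1 and a highest of 1.41 in M2 Het replicate 1. Of the 6 libraries with no Psip1, the 3 from M2 and PN5 held Top1 at 3.21% (M2 Het replicate 2), 4.43% (PN5 Het replicate 3) and 2.09% (PN5 KO replicate 3), inside or above the range of the other M2 and PN5 libraries. The 3 from the early 2-cell stage held it at 1.09% (Het replicate 2), 1.94% (KO replicate 2) and 0% (Het replicate 3).

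Dek (ENSMUSG00000021377, chromosome 13, 47084767 to 47107530) was seen in 4 libraries only. Its share was 0.677% in M2 KO replicate 2 (321 counts), 0.788% in PN5 Het replicate 1 (291 counts), 1.22% in PN5 Het replicate 2 (405 counts) and 1.11% in PN5 KO replicate 1 (171 counts). The other 11 libraries had 0, which allows up to 0.0143% in the shallower M2 Het library and up to 0.00750% in PN5 KO replicate 3. The group means were 0% in M2 Het, 0.339 ± 0.479% in M2 KO (SD, n = 2), 0.669 ± 0.619% in PN5 Het (SD, n = 3) and 0.370 ± 0.641% in PN5 KO (SD, n = 3), and 0% in both early 2-cell groups.

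Every pair of groups overlapped for Dek, since each group held a library at 0. Against the mean of the floors of 3 counts in each library of the empty group, the mean was at least 24.3-fold higher in M2 KO than in M2 Het, which rests on M2 KO replicate 2 alone, and at least 48.1-fold higher in PN5 Het than in M2 Het. The early 2-cell mean was at least 3.99-fold lower than PN5 in Het and at least 1.65-fold lower in KO, the latter resting on PN5 KO replicate 1 alone. At the PN5 mean shares the early 2-cell libraries would hold 4.21 to 52.2 counts of Dek, so a drop to 0 in the shallow ones is within a few counts of the limit of detection. In PN5 zygotes the KO mean was 1.81-fold lower than the Het mean, 1.06-fold lower without PN5 Het replicate 2, and at least 40.7-fold lower without PN5 KO replicate 1, the only KO library of the stage with Dek.

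Zeros beside high counts were common in the table as a whole. A gap was defined, after the data had been seen, as a library with 0 counts of a gene where the mean share of the other libraries of its group would give at least 20. The 4 genes had 9 gaps: 4 of Psip1, 4 of Dek and 1 of Top1, and none of Hmgn5. Among the 425 protein-coding genes tested, 354 could show a gap and 148 of these (41.8%) did, with 239 gaps in all. A floor of 3 counts does not cover such gaps, so the folds given as "at least" hold for counting error only. PN5 KO replicate 3 had 63 of them, the most of any library, and M2 KO replicate 2 had 4. Early 2-cell Het replicate 3 had 12, against 0 to 2 in the shallower libraries of its stage. In a shallower library a gene needs a larger share to reach 20 counts, so these numbers cannot be compared between libraries of unlike depth. Psip1 and Dek were both at 0 in each of the 3 libraries numbered 3, and the labels do not say what, if anything, the number 3 stands for.

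**Figure D2:**
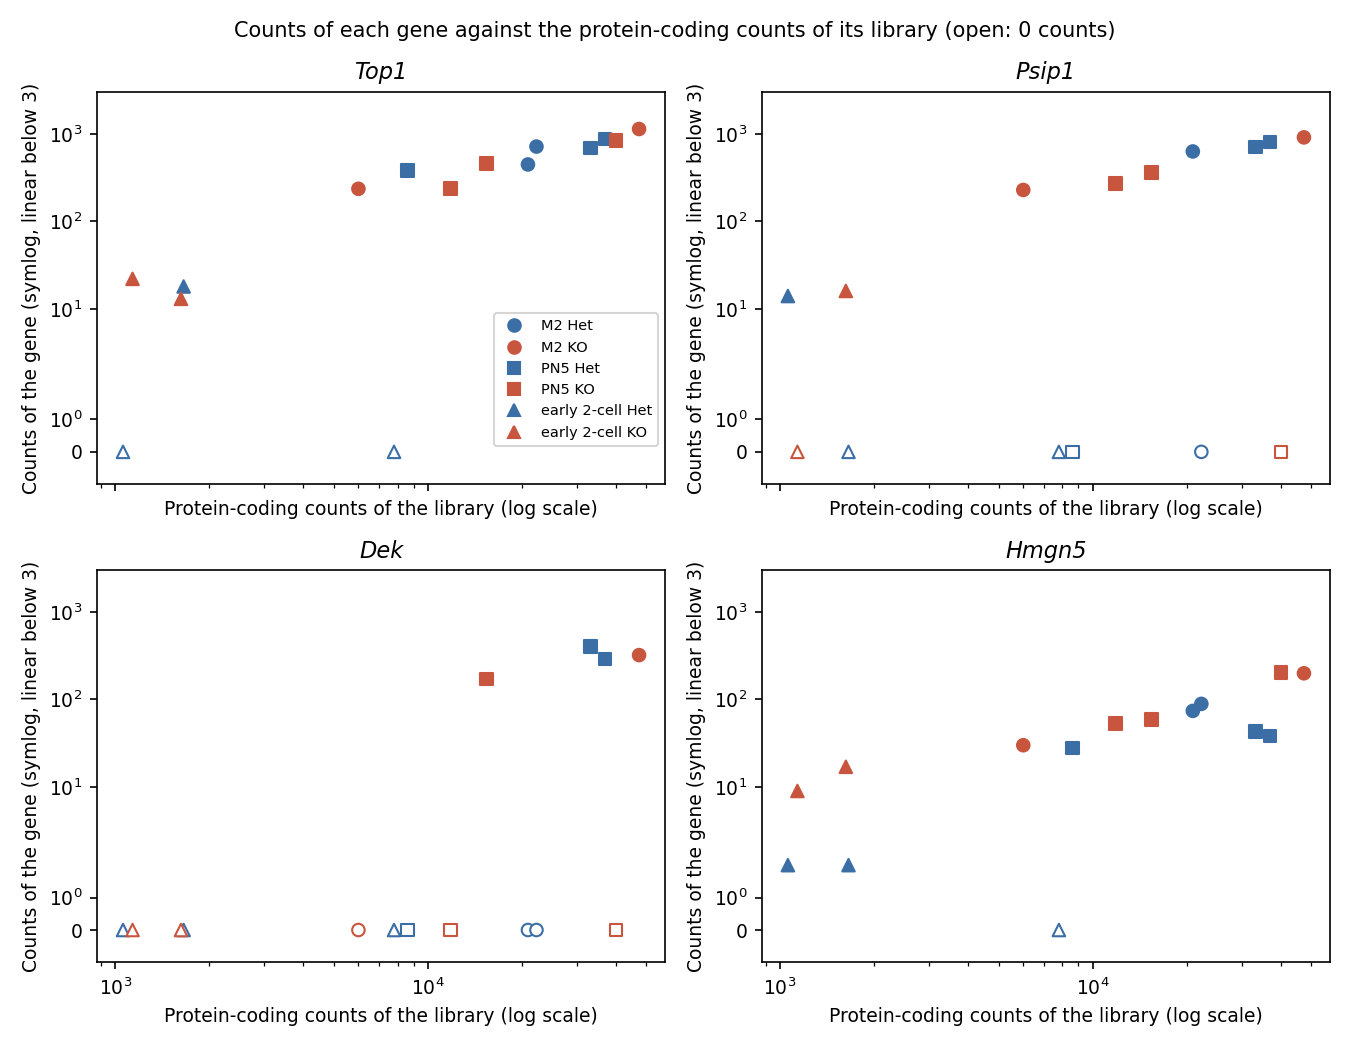
Counts of each gene (vertical axis, logarithmic above 3 and linear below) against the protein-coding counts of its library (logarithmic axis); circles are M2, squares PN5 and triangles early 2-cell libraries, Het blue and KO red, open symbols 0 counts. Psip1 and Dek drop to 0 in libraries of 39997 counts as well as in shallow ones, whereas Hmgn5 has a count in every library except early 2-cell Het replicate 3.

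Hmgn5 (ENSMUSG00000031245, chromosome X, 109004537 to 109013380) was chosen with its levels known. By its share of protein-coding counts, every KO library lay above the Het libraries of the same stage. In M2 eggs and PN5 zygotes this order depended on the denominator. The shares of all genes tested that had the same order are given below. In M2 eggs the share of Hmgn5 was 0.354% and 0.400% in Het (74 and 89 counts) and 0.500% and 0.420% in KO (30 and 199 counts). The KO libraries lay just above the Het libraries, and the counting intervals of neighbours overlapped, 0.364% to 0.482% for the lower KO library and 0.321% to 0.492% for the higher Het library.

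In PN5 zygotes the share of Hmgn5 was 0.103%, 0.130% and 0.325% in Het (38, 43 and 28 counts) and 0.383%, 0.449% and 0.505% in KO (59, 53 and 202 counts). PN5 Het replicate 3 stood between the other Het libraries and the KO libraries, and its interval of 0.216% to 0.469% reached into the KO range. In early 2-cell embryos the share was 0.189%, 0.121% and 0% in Het (2, 2 and 0 counts) and 1.05% and 0.792% in KO (17 and 9 counts). The 2 stages therefore showed the same order from very different numbers of counts, and at the 2-cell stage the interval of Het replicate 1 (0.0229% to 0.681%) overlapped both KO intervals.

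The mean share of Hmgn5 in KO over that in Het was 1.22 in M2 eggs (0.460 ± 0.0569% against 0.377 ± 0.0324%, SD, n = 2 and 2). It was 2.40 in PN5 zygotes (0.446 ± 0.061% against 0.186 ± 0.121%, SD, n = 3 and 3), and 1.96, 2.08 or 3.83 without PN5 Het replicate 1, 2 or 3. In early 2-cell embryos it was 8.91 (0.920 ± 0.18% against 0.103 ± 0.0957%, SD, n = 2 and 3), 15.2 without Het replicate 1 and 5.94 without Het replicate 3. The ratio of summed counts, which weights libraries by depth, was 1.14 in eggs (exact 95% counting interval 0.925 to 1.40), 3.37 in zygotes (2.71 to 4.24) and 24.8 in early 2-cell embryos (8.59 to 97.6). The size of the ratio at the later stages thus depended on how libraries of unlike depth were weighted. At the early 2-cell stage Het replicate 3, with 0 counts of Hmgn5, held 7795 of the 10509 protein-coding counts in Het. In eggs the counting interval included 1.

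Libraries did not overlap, with KO higher, for 12.1% of the 495 genes tested in M2 eggs, 3.43% in PN5 zygotes and 7.88% in early 2-cell embryos. Of those genes 1 (0.202%) was higher in KO at all 3 stages, and it was Hmgn5; none was lower at all 3. These values chose the gene, so nothing is read from that count.

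Across development the share of Hmgn5 was compared within each genotype. In Het it was 2.03-fold lower in PN5 zygotes than in M2 eggs, without overlap (lower without overlap for 10.3% of genes). Without PN5 Het replicate 1, 2 or 3 it was 1.66-fold, 1.76-fold or 3.24-fold lower. In KO the PN5 mean was 1.03-fold lower than the egg mean, and libraries overlapped. From PN5 to the early 2-cell stage the KO mean was 2.06-fold higher, without overlap (higher without overlap for 14.5% of genes), and lower with overlap under the share of all counts and under TMM. The Het mean was 1.80-fold lower with overlap and 1.33-fold higher without the libraries numbered 3. A difference between the genotypes in these stage ratios was not tested.

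The choice of denominator decided parts of this pattern. Besides the share of protein-coding counts, the share of all counts, CPM (a gene's count scaled to the total of all counts) with TMM factors, the protein-coding share without the 10 leading mRNAs, and the share of the protein-coding counts of genes tested were computed. In early 2-cell embryos Hmgn5 was higher in KO without overlap under all 5, by 7.58-fold to 11.9-fold. In PN5 zygotes it was higher under all 5, by 1.98-fold to 3.94-fold, and without overlap under 3. In M2 eggs the fold ran from 0.991 to 1.22, the libraries separated under 2 scalings, and under the share of all counts the direction turned.

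Under TMM scaling Hmgn5 stood at 104 and 167 CPM in M2 Het and at 140 and 141 CPM in M2 KO. PN5 Het zygotes had 33.3, 52.6 and 95.5 CPM, and PN5 KO zygotes had 137, 89.5 and 196 CPM, so that PN5 KO replicate 2 fell below PN5 Het replicate 3. Early 2-cell Het libraries had 19.5, 19.7 and 0 CPM and the KO libraries 118 and 80.3 CPM. The higher KO mean at the early 2-cell stage than at PN5 also turned with the denominator, to 0.902 of the PN5 mean under the share of all counts and 0.704 under TMM.

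**Figure D3:**
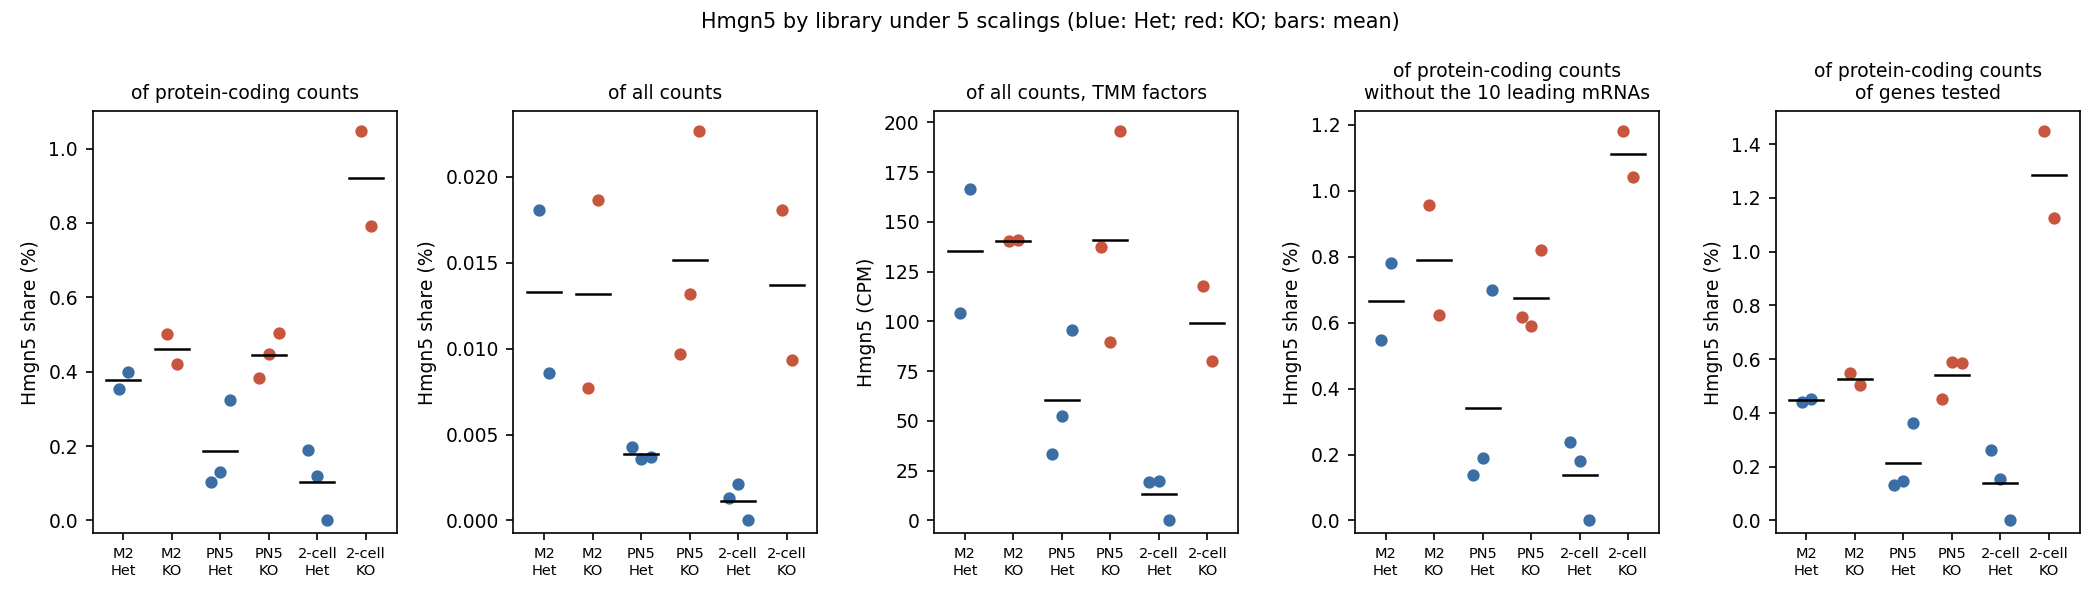
Hmgn5 in each library under 5 scalings, 1 panel each (vertical axes: share in %, or CPM in the TMM panel), by stage and genotype (Het blue, KO red; bars are group means). The early 2-cell KO points lie above the Het points in all 5 panels, the PN5 points separate in 3 and the M2 points in 2.

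The summed share of markers of cumulus and granulosa cells, which surround the egg, differed between genotypes at PN5, mostly through Cyp11a1. Of the 17 markers listed, 7 had a count (728 counts, 561 of them Cyp11a1), and Star, Amh, Inha, Fshr, Lhcgr, Has2, Tnfaip6 and Ptgs2 were among those at 0. Their summed share was 0.119% to 0.888% in PN5 KO against 0% to 0.065% in PN5 Het, higher in the genotype where Hmgn5 was higher. Cyp11a1 gave 387 of the 421 counts in PN5 KO and 0 in PN5 Het, and Inhba gave 25 and 2. Cyp11a1 had a count in only 5 of the 15 libraries. Its share was uneven between the PN5 KO libraries, at 0.385 ± 0.431% (SD, n = 3). Cyp19a1 and Ptx3 had 1 count each, in PN5 KO. Hsd3b1 and Foxl2, with 6 and 3 counts, were seen only in PN5 Het, and the mean share of Fst was 0.018% in PN5 KO and 0.015% in PN5 Het. In M2 eggs the means of the summed share had the reverse order. Their ranges overlapped slightly, 0.0167% to 0.156% in KO and 0.153% to 0.813% in Het. In early 2-cell embryos, where the Hmgn5 difference was largest, the list was at 0% in both KO libraries and at 0% to 0.0128% in Het. The part of these cells in the PN5 difference was not tested.

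A model fitted to all 495 genes that passed the count filter (edgeR quasi-likelihood test, TMM factors, Benjamini-Hochberg adjustment over the 495 genes) called 0 genes in each of the 7 comparisons at an adjusted p under 0.05, so the background was 0% and 0 of the 4 genes were called, from which nothing is read. Before adjustment, p was under 0.05 for 6 genes between KO and Het in M2 eggs, 35 in PN5 zygotes and 25 in early 2-cell embryos, 17 and 21 for PN5 against M2 in Het and KO, and 97 and 43 for early 2-cell against PN5. DESeq2 called 1, 0, 1, 3, 1, 52 and 12 genes in the same order. All 4 members passed the filter, in Dek's case through 4 libraries.

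On the log2 scale of that fit, Hmgn5 in KO over Het was 0.06 ± 1.33 (SE) in eggs, 1.22 ± 1.10 (SE) in zygotes and 3.09 ± 1.34 (SE) in early 2-cell embryos. Top1 was at -0.05 ± 1.62, -0.35 ± 1.32 and 1.32 ± 1.51 (SE) at the same stages. Psip1 was at 0.95 ± 2.87, -0.29 ± 2.32 and 0.36 ± 2.71 (SE), with the largest errors of the 3. Each SE was derived from the fitted change and its p-value. Fitted values for Dek against groups at 0 depend on the prior count and are not given.

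The stage comparison from PN5 to early 2-cell moved most genes down under TMM. The median log2 fold change over all 495 genes was -1.90 in Het and -1.60 in KO, and Top1 was at -4.08 ± 1.52 and -2.41 ± 1.64 (SE). With protein-coding counts as the library size the medians of all genes were -0.61 and -0.16, Top1 was at -3.05 ± 1.40 in Het and -0.79 ± 1.47 in KO (SE), and Hmgn5 was at -1.09 ± 1.24 and 1.05 ± 1.21 (SE). Under either scaling Top1 lay below the median of all genes in both genotypes, while Hmgn5 in KO lay above it, at -0.50 ± 1.24 (SE) against -1.60 under TMM.

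**Figure D4:**
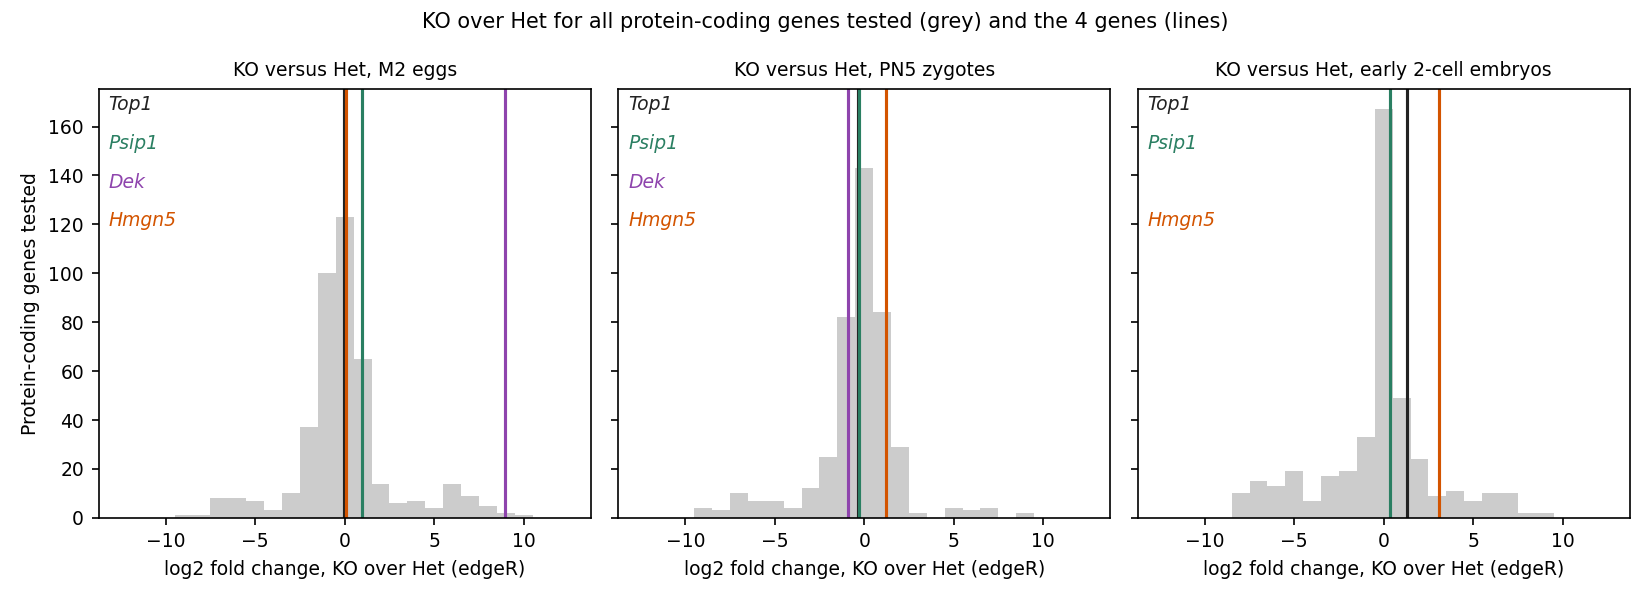
Log2 fold changes of KO over Het from the edgeR fit with TMM factors (horizontal axis) for the 425 protein-coding genes tested (grey histogram, genes per bin on the vertical axis) at each stage, with the 4 genes as lines (Top1 black, Psip1 green, Dek purple, Hmgn5 orange). Hmgn5 lies at 0.06, 1.22 and 3.09 from left to right, and Dek has no line at the 2-cell stage, where both groups were at 0.

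Relatives of Top1, Psip1 and Hmgn5 had few counts beside them, as counts not corrected for length, while those of Dek had more. Of 10 topoisomerases and related enzymes, 6 had a count, and Top1 made up 6056 of their 6207 counts. Top2a and Top2b, the enzymes that pass a duplex through a double-strand break, had 60 and 41 counts. Of the HDGF-related PWWP proteins that were in the table, 5 of 10 had a count and Psip1 made up 3946 of 4033. Among the HMGN proteins Hmgn5 held all 845 counts, and Hmgn1, Hmgn2 and Hmgn3 were at 0. The 15 libraries held 255766 protein-coding counts in sum, which allows a share of up to 0.00117% of that sum. This limit covers counting error only, and the treatment of reads that match several genes was not given. The zeros therefore do not show that Hmgn5 was the only HMGN mRNA held by ribosomes. Among the SAP-domain and scaffold attachment proteins, the list that holds Dek, 7 other genes had 753 of 1941 counts, and Dek had 1188.

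Other chromatin proteins, from lists of LEDGF partners, SAP-domain and scaffold proteins, HMGA and HMGB proteins, linker histones, heterochromatin proteins and other architectural factors, were measured at low counts. Of these, 17 genes were tested and 0 were called in any of the 7 comparisons by edgeR, where the background was 0% as well. Their median log2 fold change of KO over Het was -0.51 in eggs, -0.39 in zygotes and 0 in early 2-cell embryos, beside -0.08, -0.07 and 0 over all protein-coding genes tested. From PN5 to early 2-cell 15 of the 17 lay below 0 in Het (median -2.84, all protein-coding genes -2.45) and 14 of 17 in KO (median -1.66, all -1.91).

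The most abundant of these by mean share were the chromatin proteins Nucks1 (0.257 ± 0.17%, SD, n = 15) and Hmgb2 (0.220 ± 0.181%, SD, n = 15), the linker histones H1f1 (0.151 ± 0.124%) and H1f4 (0.120 ± 0.0907%), and Hmgxb4 (0.134 ± 0.133%). They were followed by Smchd1 (0.103 ± 0.314%), a repressor of the inactive X chromosome that was too low to be tested and whose mean is 0.022% without the 14 counts of early 2-cell KO replicate 2, and by the SAP-domain proteins Acin1 (0.0776 ± 0.0738%) and Sltm (0.0698 ± 0.0997%). In KO over Het the smallest p among the listed genes belonged to Kmt2a in eggs (log2 6.44 ± 3.67, SE, edgeR adjusted p = 1), to Safb2 in zygotes (log2 7.33 ± 3.27, SE, edgeR adjusted p = 0.696) and to Sltm in early 2-cell embryos (log2 7.11 ± 2.62, SE, edgeR adjusted p = 0.888). Each of the 3 had a group at 0 in its comparison. Safb2, a scaffold attachment factor, had 82 counts in 2 libraries, and Kmt2a, a histone methyltransferase that LEDGF binds, 124 counts in 4, the same all-or-none form as Dek. Next by p were H1f1 in zygotes (log2 -1.52 ± 1.09, SE), H1f3 in early 2-cell embryos (5.85 ± 2.87) and Safb2 in eggs (-6.71 ± 3.98). Between stages they were Safb2 and Ybx1, a cold-shock RNA- and DNA-binding protein, from M2 to PN5 in both genotypes. From PN5 to early 2-cell they were Nucks1 (log2 -3.09 ± 1.10, SE, edgeR adjusted p = 0.193) and H1f1 (-3.06 ± 1.21) in Het, and Hmgxb4 and Safb2 in KO.

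Profiles over the 15 libraries were compared by scaling each gene's shares to sum to 100% and adding up, library by library, the smaller of the scaled values. Genes were named by this overlap, so a group order that they share with a member follows in part from the choice. Among the protein-coding genes tested, the profile of Top1 overlapped most with those of the actin-binding protein gene Nexn (88.3%), the translation initiation factor Eif5b (88.2%) and the microtubule-associated protein Map1b (86.1%), against a median of 40.7% over all genes. Like Top1, each had a lower mean share at the early 2-cell stage than at PN5 in both genotypes, in KO 3.94% against 4.22% for Nexn and 3.27% against 4.76% for Eif5b. Unlike Top1 they had a count in all 15 libraries.

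Psip1 was most alike to Txndc2 (83.9%), Ccdc186 (82.6%) and Ktn1 (76.3%), with a median of 40.6% over all genes; these had a count in 9, 8 and 9 libraries. Dek was most alike to the elongation factor gene Supt5 (76.9%), Pelp1 (73.7%) and the chromatin remodeller Chd6 (68.1%), with a median of 26.0%, and these had a count in 3, 5 and 5 libraries.

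Hmgn5 was most alike to the splicing factor gene Luc7l3 (78.5%), the bromodomain gene Brd3 (78.4%) and the chromatin gene Arid4b (77.9%), against a median of 41.6%. All 3 had a higher mean in KO than in Het at the early 2-cell stage, 0.304% against 0.0773% for Arid4b, 0.590% against 0.185% for Brd3 and 1.08% against 0.0403% for Luc7l3, of whose KO libraries 1 was at 2.16% and the other at 0. In zygotes Luc7l3 had 0.838% to 1.11% in KO and 0.302% to 0.789% in Het, without overlap, and Brd3 overlapped, with a lower mean in KO (0.333%) than in Het (0.390%). Within the group of 4, the profiles of Top1 and Hmgn5 overlapped by 69.5%, those of Top1 and Psip1 by 59.4% and those of Dek and Hmgn5 by 18.1%, the lowest of the 6 pairs. All of these likenesses share the libraries and their depth, and the order of KO and Het shared with Hmgn5 follows in part from the choice by likeness.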

How the data were processed

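The table that the authors deposited holds expected counts (estimated, whole numbers, not scaled) for each gene. The submitters' processing notes name the build GRCm38 and the tools STAR 2.7.6a, StringTie 2.1.4, cutadapt and deepTools 3.5.1. The treatment of reads with more than 1 match was not given in the sources used here, so counts of genes with near-identical copies are uncertain. Biotypes came from RefSeq (GRCm38.p6), through 39101 current and 164 older symbols, and 21447 genes were protein-coding. The 16225 genes without a match held 59.1% to 92.1% of the counts of a library. Protein-coding genes held 0.696% to 5.10%. Groups came from the labels. Each library counted as 1 sample. Libraries of a group differed by more than sampling noise (lowest chi-square per degree of freedom 6.69), so none was a repeat of another. That difference does not show that they came from separate animals.

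edgeR 4.0.16 in R 4.3.3 was run on 495 genes that passed filterByExpr (minimum count 10), with TMM factors and 6 group means over 15 libraries, which leaves 9 residual degrees of freedom; the steps were tested on simulated data. DESeq2 1.42.0, other scalings and filters, the replicate number as a block, pairs of groups alone and omitted libraries were alternatives. Whether replicate numbers pair samples was not decided. Deviations from the group means, compared between libraries of the same number, had correlations of -0.15 for M2. For PN5 the correlations were -0.15 (number 1), -0.32 (number 2) and 0.10 (number 3). Early 2-cell libraries gave -0.04 (number 1) and 0.03 (number 2). Where a group holds 2 libraries their deviations mirror each other, so both M2 numbers give the same value. Correlations this weak neither show nor exclude pairing or a shared batch.

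The members and lists were chosen with earlier results of these data known. Named genes are the 4 members, the 8 other listed chromatin genes with the highest mean share, the 2 with the smallest p per comparison, the 3 most alike profiles per member, and Eif4e1b. A planned scaling by coding length and a description of protein sequences were not run, since protein lengths were not used here.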

Additional observations from a re-analysis of the deposited data

How the results depend on the processing

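No gene was called by edgeR in any of the 7 comparisons, and most alternatives gave 0 as well. DESeq2 called 1 gene for KO against Het in M2 eggs, 1 in early 2-cell embryos, 3 for PN5 against M2 in Het and 1 in KO, 52 for early 2-cell against PN5 in Het and 12 in KO. Without the count filter the numbers were 1 for KO against Het at the early 2-cell stage, 3 for early 2-cell against PN5 in Het and 1 in KO. With the groups compared fitted alone they were 1 for KO against Het at the early 2-cell stage and 4 for early 2-cell against PN5 in Het. Leaving out 1 library at a time gave 0 to 1 genes for KO against Het at the early 2-cell stage and 0 to 1 for early 2-cell against PN5 in Het; in both the gene was Top1, without early 2-cell Het replicate 2, the only library of its group with Top1, and the fit then sets a group at 0 against another. Calls of the 4 genes under the other settings are not given, since their levels chose them and most set Dek against a group at 0. The other comparisons gave 0 to 0. With the replicate number as a block 0 genes were called in each of the 3 KO against Het comparisons, and with the M2 numbers crossed 0 were called in M2 eggs, an alternative chosen after seeing the data. Omitting the libraries numbered 3 and the scalings of single-gene shares other than the protein-coding ones were also added after seeing the data. Of 343 log2 fold changes of the 4 genes under alternatives 312 moved by less than the spread between libraries. That spread is wide for Psip1 and Dek, whose zeros stand beside high counts, so for them the number says little about stability. Early 2-cell libraries, with 1059 to 7795 protein-coding counts, set the depth limit: a count of 0 allows a share of 0.0385% to 0.283%.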
